A study of Mus musculus with 2 samples.

Results

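Dlk1 and 9 other imprinted genes that control embryonic growth are described here in the tissue between the digits of mouse hind limbs. Genomic imprinting means that a gene is expressed mainly from the copy inherited from the father or from the mother. Several imprinted genes lie in shared domains and are switched by DNA methylation of a control region. Many of those expressed from the paternal copy promote growth of the embryo, and many of those expressed from the maternal copy restrain it. As a group they are active in embryonic mesenchyme and are turned down after birth. The list holds Dlk1, Igf2, Peg3, Mest, Plagl1 and Ndn, which are expressed from the paternal copy, and Meg3, H19 and Cdkn1c, which are expressed from the maternal copy. It also holds Grb10, which is maternal in most tissues. Members were all probe sets that the platform annotation assigns to exactly 1 gene, that gene being on the list. This gave 36 probe sets for 9 of the 10 genes, of 18193 named genes and 45101 probe sets on the array. For H19, a noncoding RNA, the only probe set that names it also names another gene, so no value is given for it. The genes were chosen by function, but with the Hammer toe over wild-type ratios of these same arrays in view, in which Dlk1 stood out, so the values below are given as descriptions.

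The comparison sets homozygous Hammer toe embryos against wild-type B6 embryos, both at stage E13.5, with 1 Affymetrix array per genotype. Hammer toe is a mouse mutant whose digits stay joined by soft tissue. The tissue came from the interdigital regions labelled ID2 and ID3. Each genotype is described as 3 sets of 5 littermates, 15 embryos in all, and how these sets relate to the single array is not stated. The labels name the B6 strain for the wild type alone, and strain and Hammer toe genotype cannot be told apart. With no replicates there is no test, no p-value and no error between samples, and the number of arrays limits the precision. A gene counts as different only by its size of difference, from 2-fold upward.

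Values are MAS5 intensities on a linear scale, which the authors scaled to a common level on each array. An intensity of 78.1, the median of all values, served as a floor: lower values were raised to it before a ratio was taken. A gene or probe set is measured when its brighter array is above the floor. When 1 array is under it the ratio is only a bound. Log2 ratios are Hammer toe over wild type. Intensities of different probe sets are not compared with each other, since each set of probes binds with its own efficiency. The hind limb genes were present on both arrays, as the labels have it: Pitx1 read 1228 in Hammer toe and 1423 in wild type, Tbx4 read 2558 in Hammer toe and 2812 in wild type, and the forelimb gene Tbx5 was under the floor on both. Of the 10 genes listed for the labelled tissue, Tbx5 included, 9 were measured, 1 higher and 8 lower in Hammer toe and 0 past 1.5-fold, with a median log2 ratio of -0.14, Hoxa13 at -0.41, and summed intensities of 66103 in Hammer toe and 72803 in wild type. Among all measured genes 51.7% were higher, 48.3% lower and 3.56% past 1.5-fold. Arrays of this kind read RNA of whole tissue, so more cells of a type and more RNA per cell cannot be told apart.

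The promoters of Dlk1 and Meg3 are shown because both genes and their neighbours in a shared imprinted domain read higher in Hammer toe, and that of Grb10 as a member that barely differed. Each window runs from 250 bases before to 50 after a RefSeq transcript start in GRCm38.p6, is written 5′ to 3′ on the gene's strand, and has every CG dinucleotide, the site of DNA methylation, in capitals. The Dlk1 window is chr12:109452573-109452872 (plus strand), that of Meg3 is chr12:109540746-109541045 (plus strand) and that of Grb10 is chr11:12037371-12037670 (minus strand).
Dlk1: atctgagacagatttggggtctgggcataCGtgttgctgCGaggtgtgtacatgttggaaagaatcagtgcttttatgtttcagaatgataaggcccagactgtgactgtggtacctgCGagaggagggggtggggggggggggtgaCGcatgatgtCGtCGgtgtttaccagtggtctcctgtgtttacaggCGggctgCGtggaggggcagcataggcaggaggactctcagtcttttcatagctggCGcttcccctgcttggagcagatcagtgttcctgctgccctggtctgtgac
Meg3: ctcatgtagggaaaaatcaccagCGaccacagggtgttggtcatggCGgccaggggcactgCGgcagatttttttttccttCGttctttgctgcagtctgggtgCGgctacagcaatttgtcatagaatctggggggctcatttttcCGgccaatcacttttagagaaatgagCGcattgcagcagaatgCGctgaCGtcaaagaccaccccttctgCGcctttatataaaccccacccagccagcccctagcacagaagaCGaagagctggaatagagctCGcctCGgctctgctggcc
Grb10: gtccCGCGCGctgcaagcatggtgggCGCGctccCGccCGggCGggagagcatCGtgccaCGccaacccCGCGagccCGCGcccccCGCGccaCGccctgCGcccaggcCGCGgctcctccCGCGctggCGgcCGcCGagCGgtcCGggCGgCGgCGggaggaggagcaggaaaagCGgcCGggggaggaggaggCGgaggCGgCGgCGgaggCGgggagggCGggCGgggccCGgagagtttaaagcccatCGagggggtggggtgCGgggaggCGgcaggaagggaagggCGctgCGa

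CG content differed among windows, also between windows of the same gene. The Dlk1 window held 9 CG dinucleotides, the Meg3 window 13 and the Grb10 window 45, while a second window of Meg3 held 1 and another of Grb10 held 9, against a median of 7 over 32851 windows of the same length. RefSeq windows were found for 8 of the 10 genes, 15 windows in all, and 12 of the 15 were above that median. Both strands were searched for GACCACCC, which is the binding motif of the hedgehog effectors known as Gli proteins, GACCACCCA, without its last base. It stood in 3 of the 15 windows, against 0.807% of all windows. The Meg3 window above holds it 47 bases before the start, and a second Meg3 window, chr12:109545148-109545447 (plus strand), holds it on the opposite strand. The third match was in another Grb10 window, chr11:12027922-12028221 (minus strand). These stretches are shown with the motif in capitals.
Meg3, window above: tgacgtcaaaGACCACCCcttctgcgcc
Meg3, second window: agcttcccaaGGGTGGTCttggggagct
Grb10, other window: atGACCACCCtgaagcctct
The full GACCACCCA stood in 0 of the 15 windows and in 0.253% of all windows. The TATA motif TATAAA stood in 1 of the 15, that of Meg3 above, and in 13.6% of all windows, and does not overlap the other motif there. No window of Dlk1 or Igf2 held any of these motifs, which says only that the letters are not in these windows. The 3 windows with the shortened motif belong to Meg3 and Grb10 alone. The 15 windows come from 8 genes, and some windows of Mest overlap, so they are not independent. Whether Gli proteins bind at any of them was not tested.

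Dlk1 was the only listed gene past 2-fold, and most of the others were within a few percent of wild type. Of the 9 genes with a probe set of their own, read from their brightest probe set, 5 were higher in Hammer toe and 4 lower, beside 51.7% and 48.3% of all measured genes. Past 2-fold was 1 of 9, beside 0.37% of all 11621 measured genes, and that gene was also the 1 past 1.5-fold, beside 3.56%. The median log2 ratio over the 9 genes was 0.03, beside 0.01 over all measured genes. Within 1.1-fold were 7 of the 9, beside 55.7% of all measured genes. These 7 were all among the 844 genes whose brighter array read above 5000, where 81.9% were within 1.1-fold. At the level of probe sets, 26 of the 36 were measured, 24 of them on both arrays, and 10 were under the floor on both. Of the 26 measured, 17 were higher in Hammer toe and 9 lower, beside 50.2% and 49.8% of all 20995 measured probe sets.

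**Figure D1:**
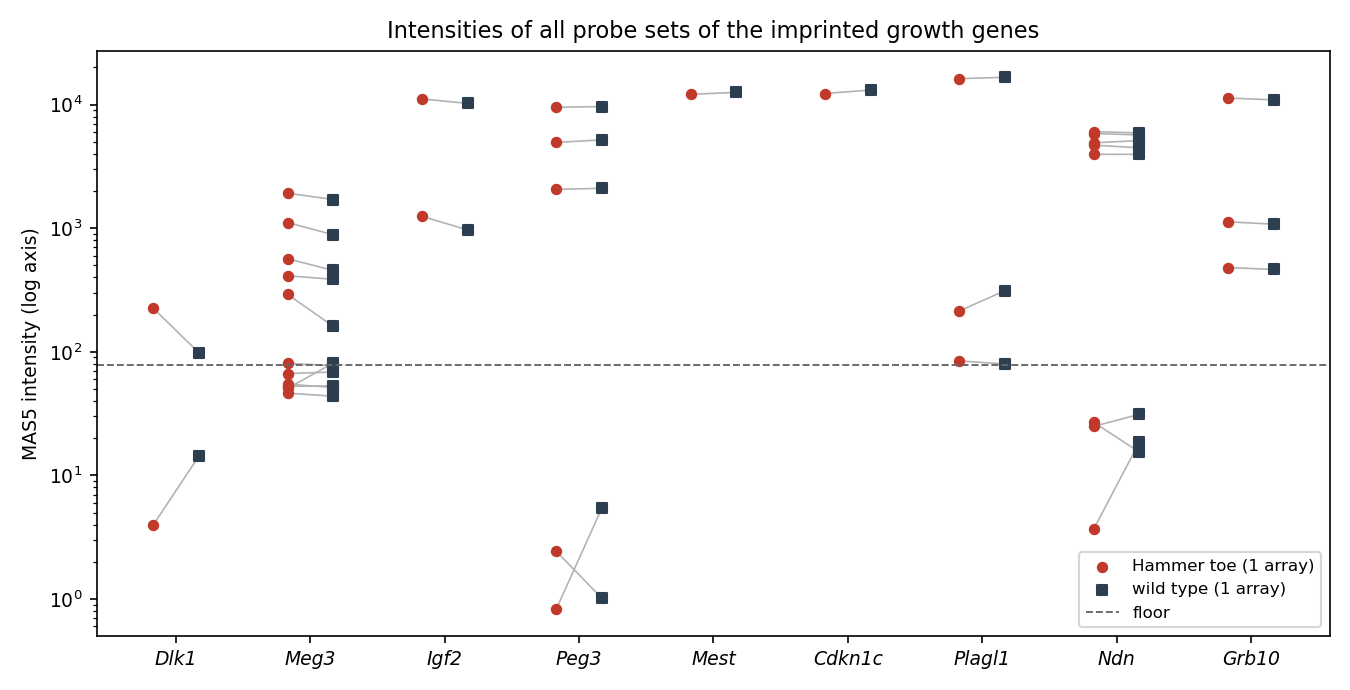
MAS5 intensity (log axis) of every probe set of the 9 genes, with Hammer toe as circles on the left and wild type as squares on the right, 1 array each; a grey line joins the same probe set and the dashed line is the floor of 78.1. Among the lines above the floor, those of Dlk1 and of one Meg3 probe set slope most, while those of Peg3, Mest, Cdkn1c and Grb10 are nearly level.

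Dlk1 encodes a membrane protein with EGF-like repeats, related to the Notch ligands, which keeps progenitor cells from differentiating and is known above all from adipocyte precursors. Its measured probe set, 1449939_s_at, read 225 in Hammer toe, against 98.2 in wild type. Both values were above the floor, that of wild type only a little. The ratio was 2.29-fold higher, a log2 ratio of 1.20, and placed Dlk1 at rank 16 from the highest among the 11621 measured genes. Among probe sets whose brighter array read from 200 to 1000, as here, 95% lay within 1.45-fold, and among those whose brighter array read up to 200, the range of the wild-type value, within 1.59-fold. The difference rests on this single probe set, whose suffix _s_at marks probes that may bind more than 1 transcript. The second probe set of Dlk1, 1442724_at, read 3.97 in Hammer toe and 14.3 in wild type, under the floor on both arrays, and gives no ratio. When the floor was replaced by a pseudocount of the same size, the log2 ratio of Dlk1 was 0.78, under 2-fold.

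Meg3, a noncoding RNA made from the maternal copy of the same domain on chromosome 12 as Dlk1, was higher in Hammer toe on most of its probe sets, by smaller amounts. The brightest, 1439380_x_at, read 1921 in Hammer toe and 1706 in wild type, a log2 ratio of 0.17. The second, 1452905_at, read 1111 in Hammer toe and 885 in wild type, 1.26-fold higher. The third, 1452183_a_at, read 566 in Hammer toe and 456 in wild type, 1.24-fold higher. These 3 probe sets all lay inside the range that held 95% of probe sets of like intensity. The probe set 1436713_s_at read 413 in Hammer toe and 386 in wild type, a log2 ratio of 0.10. The probe set 1426758_s_at stood apart from the others, at 292 in Hammer toe and 161 in wild type, 1.81-fold higher and outside that range. It was designed on the same sequence record as 1452183_a_at, whose log2 ratio was 0.31 against 0.86 here. Of the 2 probe sets with 1 array under the floor, 1429257_at gave at least 0.04 on the log2 scale, and 1428764_at read 50.7 in Hammer toe and 81.1 in wild type, a bound of -0.05. Of the 11 probe sets of Meg3, 7 were measured, 6 higher and 1 lower, and their log2 ratios averaged 0.25 ± 0.30 (SD over 7 probe sets, which share 1 RNA sample per genotype and are not replicates). Across the 5134 genes for which several probe sets passed the floor in both genotypes, the log2 ratios within a gene had an SD of 0.21. That SD leaves out bounds, whereas the 7 values of Meg3 include 2, so the SDs are not over like sets.

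**Figure D2:**
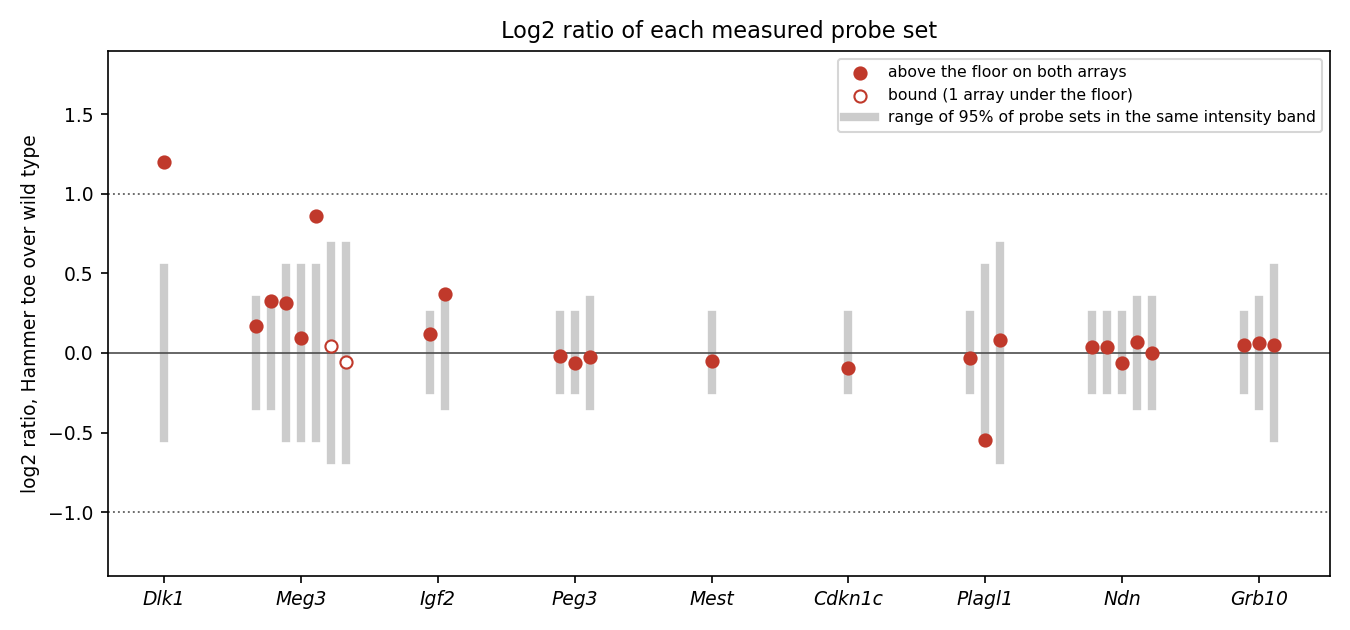
Log2 ratio, Hammer toe over wild type, of the 26 measured probe sets by gene; filled circles are above the floor on both arrays, open circles are bounds, grey bars span the range of 95% of all probe sets in the same intensity band and dotted lines mark 2-fold. Dlk1 at 1.20 stands alone past 2-fold, and 1 probe set each of Meg3, Igf2 and Plagl1 also lies outside its grey bar.

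The other noncoding RNAs of the Dlk1 domain also read higher. Rian and Mirg are transcribed downstream of Meg3 from the maternal copy and host small nucleolar RNAs and microRNAs. Rian read 2416 in Hammer toe and 1910 in wild type on its brightest probe set, 1.27-fold higher, and 845 in Hammer toe and 784 in wild type on its second, 1.08-fold higher. Neither of its remaining probe sets reached the floor. Mirg read 162 in Hammer toe and 121 in wild type on the first probe set, 1.34-fold higher, and 121 in Hammer toe and 86.4 in wild type on the second, 1.40-fold higher. Of the 12 measured probe sets of Dlk1, Meg3, Rian and Mirg, 11 were higher and 1 lower. The lower one was a Meg3 bound of -0.05, and the higher ones include a Meg3 bound of 0.04. Of all measured probe sets 50.2% were higher and 49.8% lower. Meg3 alone gave 7 of the 12, and all 12 share 1 RNA sample per genotype, so they are not replicates. The count includes the genes whose values were in view when they were chosen. Both Mirg ratios lay inside the range of 95% of probe sets of like intensity, 1.59-fold, and the second of Rian inside 1.45-fold. The brightest Rian probe set lay barely outside its own range, 1.26-fold. Dlk1 is expressed from the paternal copy and the 3 noncoding RNAs from the maternal copy. Dlk1, the only paternal gene measured here, and the 3 maternal ones read higher, but most probe sets of the maternal ones lay inside these ranges. From which copy the RNA came was not tested. Rtl1, Dio3 and Begain of the same domain are not analysed here, since no probe set was assigned to them alone.

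Genes next to the domain lay on both sides of wild type. Of the 20 nearest measured genes on chromosome 12, 10 on each side, 7 were higher in Hammer toe and 13 lower, beside 51.7% and 48.3% of all measured genes, with a median log2 ratio of -0.03. On the side before Dlk1 5 were higher and 5 lower, and on the side after Mirg 2 were higher and 8 lower. These neighbours were looked up after the domain's values were seen. Past 1.5-fold was 1 of the 20, beside 3.56% of all measured genes: Eml1, a microtubule-associated protein, which read 259 in Hammer toe and 168 in wild type, a log2 ratio of 0.62. Bcl11b, a transcription factor, and Evl, a regulator of actin, on the same side were at 0.40 and 0.27, values above that of Meg3. Eml1 and Bcl11b were also above Rian, at 0.34, and Eml1 above Mirg, at 0.43. Eml1, Bcl11b and Evl, at 1.54-fold, 1.32-fold and 1.20-fold, each lay outside the range of 95% of like probe sets. Those ranges were 1.45-fold, 1.26-fold and 1.18-fold. Wdr25, the measured gene just before Dlk1, stood at 0.09, and Ppp2r5c, the one just after Mirg, at -0.05.

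**Figure D3:**
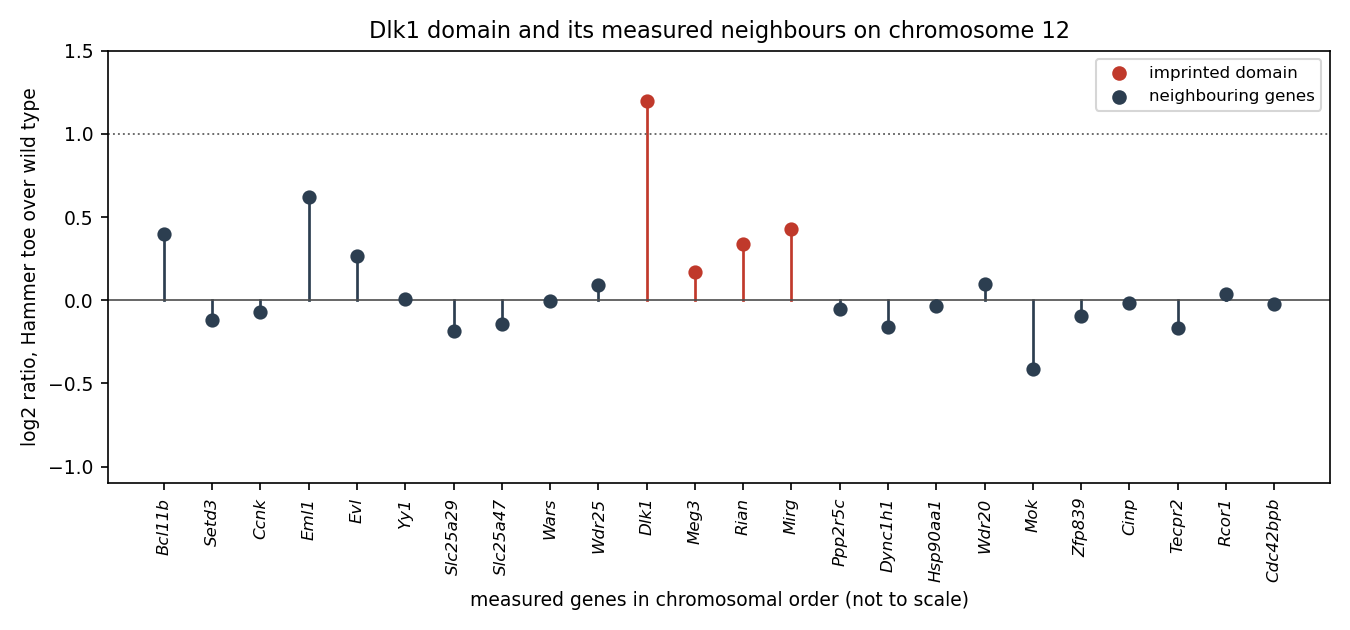
Log2 ratio, Hammer toe over wild type, of Dlk1, Meg3, Rian and Mirg (red) and of 10 measured genes on each side (dark), each by its brightest probe set and in chromosomal order, not to scale; the dotted line marks 2-fold. The 4 domain genes are above 0, and the neighbours before Dlk1 lie 5 above and 5 below it, with Eml1 at 0.62, and those after Mirg 2 above and 8 below.

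Igf2 encodes insulin-like growth factor 2, the main growth factor of the mouse fetus, and is expressed from the paternal copy. Its brightest probe set, 1448152_at, read 11132 in Hammer toe and 10232 in wild type, 1.09-fold higher. The second, 1415931_at, read 1249 in Hammer toe and 968 in wild type, 1.29-fold higher. The first lay inside the range of 95% of probe sets of like intensity, 1.18-fold, and the second just outside its own, 1.26-fold. Both probe sets were thus higher, by log2 ratios of 0.12 and 0.37.

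Among the genes that act with Igf2, most were higher, while the signalling receptors were slightly lower on their brightest probe sets. Of 12 listed genes of the insulin-like growth factor axis, 11 were measured, with a median log2 ratio of 0.10. Of these 11, 8 were higher and 3 lower, beside 51.7% and 48.3% of all measured genes. On the brightest probe set 0 were past 1.5-fold, beside 3.56%. Igf1, the related ligand, read 997 in Hammer toe and 718 in wild type, a log2 ratio of 0.47, and its 4 probe sets ranged from 0.47 to 0.89. Igfbp2, which binds both ligands, read 12655 in Hammer toe and 8468 in wild type, a log2 ratio of 0.58. That is 1.49-fold higher, where 95% of probe sets of like intensity lay within 1.18-fold. Irs1, Irs2 and Igfbp3 of the same list were at 0.35, 0.31 and 0.26. The signalling receptor Igf1r and the insulin receptor Insr were at -0.19 and -0.18, and the 5 probe sets of Igf1r ranged from -0.24 to 0.02. Igf2r, an imprinted receptor that clears Igf2 from the cell surface, read 3083 in Hammer toe and 2774 in wild type on one probe set and 834 in Hammer toe and 1042 in wild type on the other, log2 ratios of 0.15 and -0.32. The proteins Igf2bp1 and Igf2bp3, which bind Igf2 messenger RNA, were at -0.26 and 0.02.

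The imprinted growth restrainers Cdkn1c and Grb10 barely differed. Cdkn1c encodes p57, an inhibitor of cyclin-dependent kinases that stops the cell cycle. Its only probe set read 12302 in Hammer toe and 13131 in wild type, 1.07-fold lower. Grb10 encodes an adaptor that dampens signalling from the insulin and IGF receptors. It read 11317 in Hammer toe and 10925 in wild type on the brightest probe set, 1.04-fold higher. Its other probe sets read 1127 in Hammer toe and 1079 in wild type, and 481 in Hammer toe and 464 in wild type. The 3 log2 ratios of Grb10 were between 0.05 and 0.06, the closest among members with several measured probe sets. The related cell cycle inhibitors Cdkn1a and Cdkn1b were at 0.07 and -0.03, and the Grb10 relative Grb14 at 0.39.

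Peg3 and Mest, expressed from the paternal copy, were slightly lower. Peg3 encodes a zinc finger protein tied to stem cells and cell survival. Its brightest probe set read 9513 in Hammer toe and 9651 in wild type. Its other measured probe sets read 4952 in Hammer toe and 5183 in wild type, and 2065 in Hammer toe and 2105 in wild type. All 3 were lower, by log2 ratios from -0.07 to -0.02, well inside the range of like probe sets. The remaining 2 probe sets of Peg3 were under the floor on both arrays. Mest, a hydrolase of embryonic mesoderm, read 12125 in Hammer toe and 12560 in wild type, 1.04-fold lower.

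Plagl1 encodes a zinc finger transcription factor that in mouse regulates other imprinted genes, and its probe sets did not share a direction. The brightest, 1426208_x_at, read 16235 in Hammer toe and 16631 in wild type, a log2 ratio of -0.03. The second, 1450533_a_at, read 214 in Hammer toe and 313 in wild type, 1.46-fold lower, where 95% of like probe sets lay within 1.45-fold. The third, 1438588_at, read 84.3 in Hammer toe and 79.8 in wild type, just above the floor, a log2 ratio of 0.08. The gene therefore had no direction that held across its probe sets: its log2 ratio was -0.17 as their mean and 0.08 when only probe sets without a suffix letter before _at were kept.

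Ndn encodes necdin, a MAGE family protein that restrains proliferation and is known from neurons and muscle progenitors. Its brightest probe set read 6049 in Hammer toe and 5904 in wild type. The 5 measured probe sets of Ndn had log2 ratios from -0.06 to 0.07, with 4 higher and 1 lower. The other 3 were under the floor on both arrays. Its relatives Maged1, Maged2, Mageh1 and Magee1 were all slightly lower, at log2 ratios from -0.12 to -0.04.

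**Figure D4:**
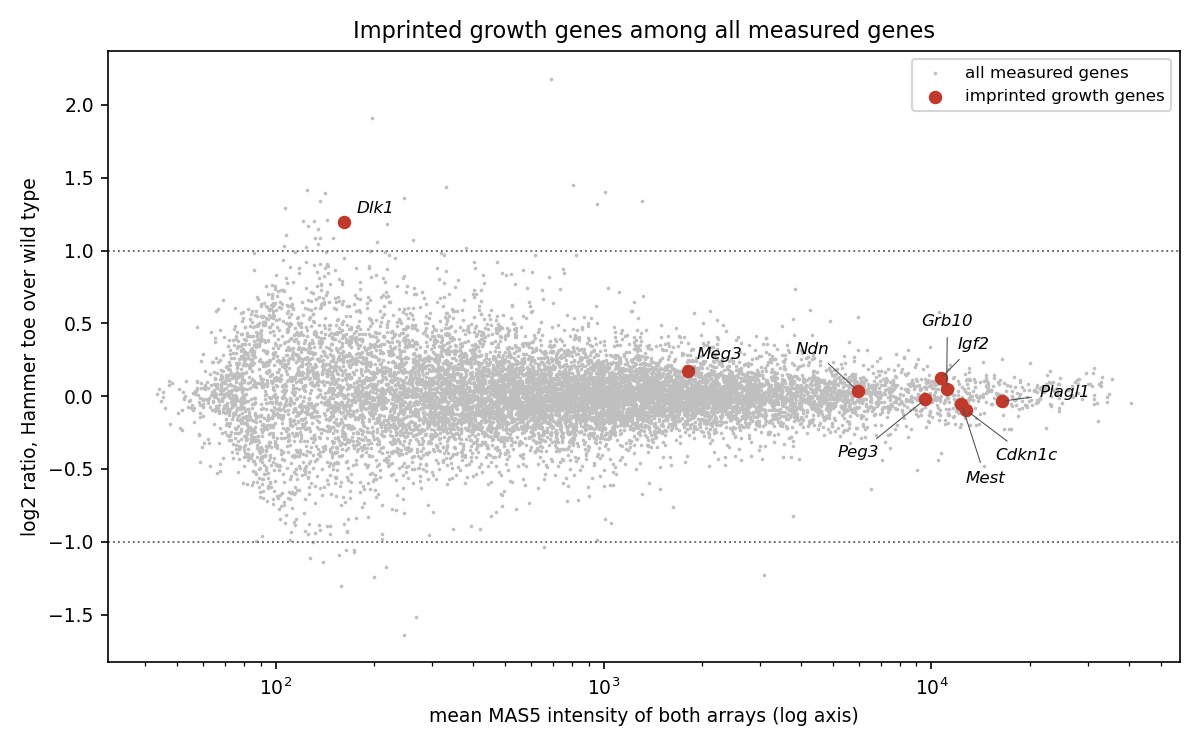
Log2 ratio, Hammer toe over wild type, against the mean MAS5 intensity of both arrays (log axis) for all 11621 measured genes in grey and the 9 imprinted growth genes in red, each by its brightest probe set, with bounds drawn at their bound; dotted lines mark 2-fold. Dlk1 lies above the cloud at low intensity, Meg3 near its middle, and the other 7 at the bright end within 1.1-fold.

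Imprinted genes beyond the 10 did not lean to one side. Of 70 further imprinted genes, 60 had a probe set of their own and 45 were measured, with a median log2 ratio of 0.01. Of these 45, 25 were higher and 20 lower, beside 51.7% and 48.3% of all measured genes. Past 1.5-fold were 3 of the 45 (6.67%), beside 3.56% of all measured genes. Dcn (decorin, a matrix proteoglycan, imprinted in mouse placenta) read 733 in Hammer toe and 439 in wild type, a log2 ratio of 0.74. Asb4, a component of ubiquitin ligases, read 843 in Hammer toe and 1288 in wild type, 1.53-fold lower, and its second probe set read 731 in Hammer toe and 1262 in wild type, 1.73-fold lower. Tspan32, a tetraspanin gene near Cdkn1c on chromosome 7, read 133 in Hammer toe and 300.3 in wild type, 2.26-fold lower, the only one of the 45 past 2-fold. Its second probe set did not reach the floor on either array.

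Measured genes near the other members in their domains lay on both sides of wild type. On chromosome 7, Phlda2, a restrainer of placental growth beside Cdkn1c, read 293 in Hammer toe and 196 in wild type, a log2 ratio of 0.58, and Nap1l4, a histone chaperone, stood at -0.12. Kcnq1ot1, the noncoding RNA of the same domain, stood at 0.24 by its brightest probe set but at -0.15 by another. Copg2 next to Mest was at 0.00. Magel2 near Ndn, at 113 in Hammer toe and 144 in wild type, was at -0.35. Usp29 near Peg3, under the floor in Hammer toe, gave a bound of -0.39. Ddc and Cobl near Grb10 were at 0.04 and at least 0.21, and Phactr2 near Plagl1 was at -0.15. The 8 listed genes that maintain imprints were all measured, 4 higher and 4 lower, beside 51.7% and 48.3% of all measured genes. Their median was -0.02, with the DNA methyltransferase Dnmt1 at 0.02 and the zinc finger protein Zfp57 at -0.04.

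The Notch side of Dlk1 gave no common direction. Dlk2, its closest relative, read 188 in Hammer toe and 140 in wild type on one probe set and 79.5 in Hammer toe and 124 in wild type on the other, log2 ratios of 0.42 and -0.64 in opposite directions. Of 7 genes, Dlk2, the 4 Notch receptors and the targets Hes1 and Hey1, 3 were higher and 4 lower, with 0 past 1.5-fold on the brightest probe set. Among all measured genes 51.7% were higher, 48.3% lower and 3.56% past 1.5-fold. Notch4 was lowest, at -0.52, and Notch1 stood at 0.23.

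Lists of markers for other cell types, some of which express these genes, are given with their counts, and their part in the values above was not tested. Summed intensities are led by the brightest probe sets of a list and serve only to set the 2 arrays side by side. The counts stand beside the shares of all measured genes: 51.7% higher, 48.3% lower, 3.56% past 1.5-fold and 0.37% past 2-fold. Dlk1, Igf2, Meg3 and Cdkn1c are known from embryonic muscle. Of 14 muscle markers 10 were measured, 8 of them higher, with 3 past 1.5-fold and a median log2 ratio of 0.44, and the summed intensity of all 14 was 2325 in Hammer toe and 1588 in wild type. The progenitor markers Myf5 and Pax7 stayed under the floor in both genotypes, and Myod1 was at -0.23, while Myh3 and Actc1 were at 1.09 and 0.97. Of 11 fibroblast and tendon markers, all measured, 10 were higher and 4 past 1.5-fold, with a median of 0.22 and summed intensities of 32402 in Hammer toe and 28204 in wild type. The proteoglycan genes Ogn, Lum and Kera stood at 1.45, 1.40 and 0.99, the first pair above Dlk1, and Dcn is counted both here and among the further imprinted genes. Other genes of that list differed little: Scx was at 0.16, Col3a1 at 0.06, Tnmd at a bound of 0.01 and Mkx at -0.13. Of 16 cartilage markers 15 were measured and 14 of them lower. By the brightest probe set 6 were past 1.5-fold and 0 past 2-fold, with a median of -0.56 and sums of 11188 in Hammer toe and 17121 in wild type. Other probe sets of Sox5, Hapln1 and Col9a3 were past 2-fold, at -1.29, -1.02 and -1.02. All 13 surface ectoderm markers were measured, 11 higher and 2 past 2-fold as bounds, Pkp1 and Krt19, with a median of 0.48 and sums of 14419 in Hammer toe and 11130 in wild type. The 10 macrophage markers had 9 higher, 3 past 1.5-fold and 0 past 2-fold, a median of 0.41, and sums of 4249.9 in Hammer toe and 3278 in wild type. The 8 endothelial markers had 3 higher and 5 lower, 0 past 1.5-fold, a median of -0.03, and sums of 4474 in Hammer toe and 4246 in wild type. Of 8 erythroid markers 6 were measured, all lower and 1 past 1.5-fold, with a median of -0.34 and sums of 49201 in Hammer toe and 57207 in wild type. Of 8 Schwann cell and nerve markers 4 were measured, each of them higher and 1 past 1.5-fold. Mbp was at 0.67, Erbb3 at 0.30, Tubb3 at 0.04 and Sox10 at a bound of 0.00, its Hammer toe value barely over the floor. The median was 0.17, with sums of 1198 in Hammer toe and 918 in wild type. The adipocyte genes Pparg, Adipoq and Fabp4 did not reach the floor in either genotype, and Cebpa was at 0.69.

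**Figure D5:**
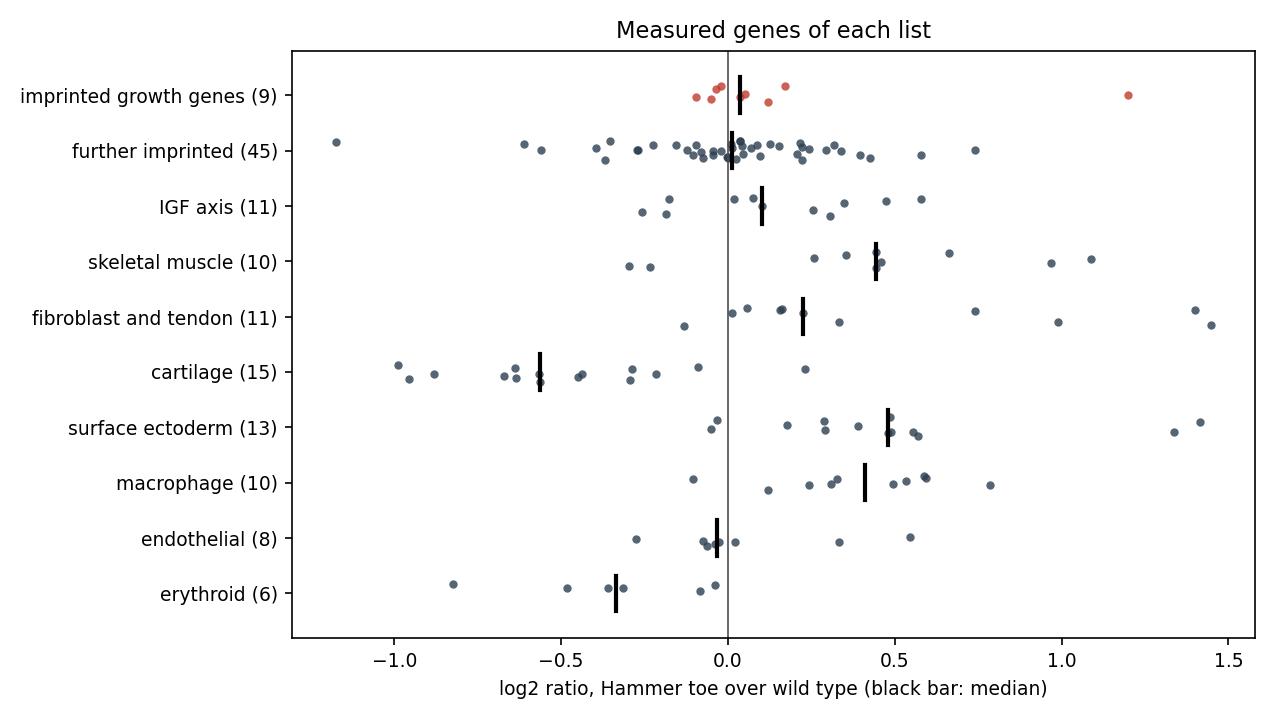
Log2 ratio, Hammer toe over wild type, of each measured gene (points, by brightest probe set, bounds at their bound) in the imprinted growth genes (red), the further imprinted genes, the IGF axis and 7 lists of cell type markers (dark), with the number measured in parentheses and a black bar at the median; vertical jitter carries no meaning. The imprinted growth genes cluster near 0 with Dlk1 apart at 1.20, while muscle and surface ectoderm markers lie mostly above 0 and cartilage markers below it.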

How the data were processed

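Affymetrix arrays, 1 per genotype, measured RNA of the interdigital tissue. Per the labels' protocols, biotinylated cRNA was made from 250 ng of total RNA. The deposited values are linear intensities; per the submitters' processing notes the authors used MAS5 and Affymetrix Expression Console (versions not given in the sources used here). With 2% of values trimmed from either end, both arrays had a mean of 500.003, so a shift of most transcripts together cannot be seen. Over the 21517 probe sets that passed the floor in both genotypes, log2 intensities correlated with r = 0.991, across probe sets that are not replicates. Among 18 spiked hybridisation probe sets the SD of the log2 ratio was 0.06.

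GEO's platform annotation, with symbols updated through the gene ID in RefSeq's table of GRCm38.p6, gave exactly 1 gene to 34945 probe sets, several to 932 and none to 9160. Another 64 were controls. Of 18193 named genes 11621 were measured. Each gene was represented by the probe set of highest mean intensity. Named were all members with every probe set, further imprinted genes past 1.5-fold or nearest a member, and chosen partners; other genes quoted from the lists were picked with their values in view. The members and lists were chosen with earlier results of these data known. Calculations used Python 3.11.15, pandas 2.3.3 and numpy 2.4.6. They were tested on simulated data, made by shuffling the observed ratios and adding known changes. Changes were added only to genes well above the floor on both arrays, so the test did not cover dim genes such as Dlk1. Alternatives changed scaling, floor and choice of probe set.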

Additional observations from a re-analysis of the deposited data

How the results depend on the processing

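Every alternative was planned. A lowess correction (span 0.3), quantile normalization and centring on the median left the counts of listed genes past 1.5-fold and 2-fold at 1 and 1, and those of further imprinted genes at 3 and 1. Of 78 recomputed values of single listed genes, 1 moved by more than the spread between probe sets of a gene (SD 0.21 on the log2 scale): Dlk1 with a pseudocount in place of the floor, at 0.78, where the count past 2-fold was 0 among the listed genes and 0 among the further imprinted genes, with Tspan32 at -0.84, and 2 further imprinted genes were past 1.5-fold. Dlk1 was not measured under a floor at the 75th percentile, an intensity of 498, or without probe sets of the suffixes _x_at, _s_at and _a_at, so there the listed genes had 0 past 1.5-fold and 0 past 2-fold. The further imprinted genes past 1.5-fold and 2-fold were 10 and 5 under a floor at the 25th percentile, where 14.4% and 4.97% of all measured genes passed, 13 and 7 with no floor, where 25.6% and 16.5% passed, and 1 and 0 under the 75th percentile floor, where 0.655% and 0.0854% passed. The log2 ratio ranged over all settings from 0.16 to 0.33 for Meg3, from 0.11 to 0.24 for Igf2 and from -0.17 to 0.08 for Plagl1. No replicate could be left out. No paired analysis was possible because each genotype has 1 array. The wild-type value of Dlk1 is close to the floor.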
